A study of Mus musculus with 6 samples.

Results

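The cells described here were the Krt19- and Lgals3-rich, transitional cells of 2 single-cell libraries of mouse alveolar type II (ATII) cells. They were chosen by a rule on measured values. In each library, among cells with at least 1000 unique molecular identifiers (UMIs), the rule took the 10% with the highest summed UMI fraction of Krt19, Lgals3, Krt8, Krt7, Cldn4 and Sfn, called the keratin sum. It then removed the cells in that library's highest 5% for the ATI sum, the summed fraction of the alveolar type I (ATI) genes Ager, Hopx, Cav1, Akap5, Clic5, Pdpn and Rtkn2. This left 1633 of the 20187 cells of these libraries, 392 of 5593 cells (7.01%) from library B and 1241 of 14594 cells (8.50%) from library C, out of 36584 cell barcodes in the whole series. They were set against the highest 5% in the ATI sum, called ATI-marker cells (280 and 730), and against the 50% of cells lowest in the keratin sum, called keratin-low cells (2797 and 7297).

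The study's question, per its title, was the response of aging ATII cells to IL-4. Per the labels, cells of IL4Ra WT genotype were sequenced on day 13 of culture from young animals, on day 13 from young and old animals together, and fresh on day 0 from young and old animals together. All 3 expression libraries are labelled as lung, Type 2 pneumocytes and a mixed sample. The culture grew alveolarspheres, hollow epithelial balls, without serum or feeder cells, and wells received 10 ng/ml cytokine or PBS from day 3. The interleukin number of the design text is not that of the title. Live cells were taken as Sytox blue-negative, and 3′ ends were read with 10x chemistry v3.1. Mice and treatments were pooled with multiplexing tags, and tag counts are not analysed here. The library tokens on the barcodes match no label, so they go by the letters A, B and C here, and the day, age and treatment of a cell are unknown. Libraries B and C are 1 sample each and are not replicates of each other. No test was run for that reason: values are given for each library, and the exact 95% intervals cover no more than counting error.

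ATII cells make surfactant and also serve as alveolar stem cells. On the way to flat, gas-exchanging ATI cells they pass through a transitional state, known from injured mouse lung and from organoids, that is marked by simple epithelial keratins, Lgals3, claudin 4, stratifin and p53 and TGF-beta target genes. Such cells are known to accumulate where alveolar repair is incomplete.

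Library B held 48677816 UMIs with a median of 8348.5 per cell, and library C held 53372634 with a median of 3336. The transitional cells had fewer UMIs than the keratin-low cells, with a median of 5499 against 9077 in library B and 2887 against 3544 in library C. ATI-marker cells had 4412 and 2310.5. Mitochondrial UMIs had a median of 0.592% and 0.525% in transitional cells, 0.607% and 0.590% in ATI-marker cells and 0.844% and 0.665% in keratin-low cells. Of the barcodes, 22 occurred in both libraries. No doublet caller was run. Without the 5% of cells with the most UMIs in each library, the counts of genes below were 283 higher and 247 lower than in keratin-low cells. These were out of 4514 genes measured.

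The 6 genes that chose the cells are given as a description. Krt19, Krt8 and Krt7 encode simple epithelial keratins, Lgals3 encodes galectin 3, Cldn4 the tight junction protein claudin 4 and Sfn the p53 target stratifin. Krt19 stood at 1401 CPM (UMIs per 1000000 UMIs of the summed group) in transitional cells of library B, against 1329 CPM in ATI-marker cells and 111 CPM in keratin-low cells. In library C the Krt19 levels were 1491, 751 and 100 CPM in the same order of groups. Lgals3 stood at 1425 and 1256 CPM in transitional cells of libraries B and C, against 80.4 and 44.6 CPM in keratin-low cells. Cldn4 stood at 201 and 199 CPM in transitional cells, against 20.3 and 23.6 CPM in keratin-low cells. As a description of the chosen cells, with every cell thinned to 1000 UMIs, at least 3 of the 6 had a UMI in 65.8% of transitional cells from library B (60.9 to 70.5%) and in 66.1% of those from library C (63.4 to 68.7%). The shares in keratin-low cells were 1.0% and 0.384%, and unthinned they were 100% and 97.6% in transitional cells, against 61.6% and 15.7% in keratin-low cells. The rule fixed the direction of these shares. The last cells inside the cut had keratin sums of 32.85544 (library B) and 33.22259 (library C) per 10000 UMIs, and the first cells outside it had 32.78689 and 33.21033, so the cut falls in a continuum. Within the group the sum ran to 227 and 209 per 10000, with medians of 53.8 and 48.1.

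**Figure D1:**
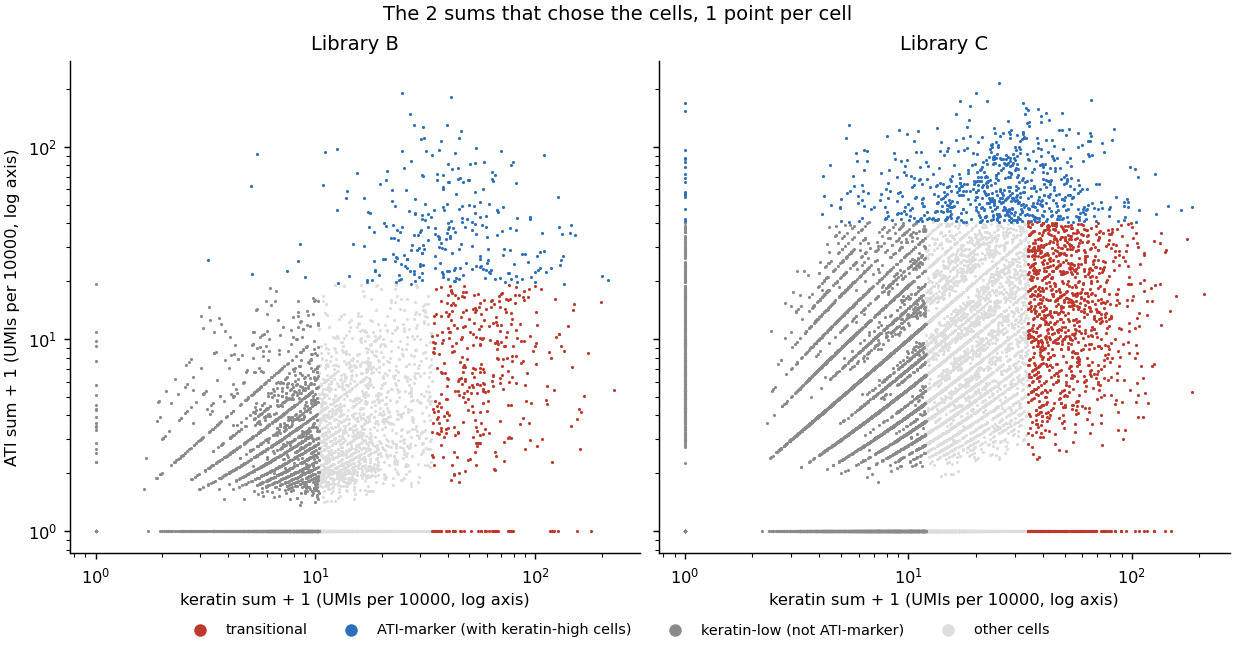
Keratin sum (x axis) and ATI sum (y axis) of each cell, in UMIs per 10000 plus 1 on log axes, for library B (left) and C (right), with 1 point per cell coloured by group. The transitional cells fill the right-hand block from an ATI sum of 0 up to the ATI cut, at 18.3 (library B) and 39.6 (library C) per 10000, and no gap sets them apart from other cells.

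The label of these cells as lacking ATI markers holds only for the cut. Ager, the receptor for advanced glycation end products and the classic ATI marker, stood at 321 CPM in transitional cells of library B, against 2826 CPM in ATI-marker cells and 86.8 CPM in keratin-low cells. In library C Ager stood at 702 CPM in transitional cells, against 4033 CPM in ATI-marker cells and 333 CPM in keratin-low cells. Hopx, a homeodomain cofactor of ATI cells, stood at 148 and 284 CPM in transitional cells, against 13.9 and 50.2 CPM in keratin-low cells. The median ATI sum of transitional cells was 5.23 and 11.3 per 10000 UMIs, against 33.9 and 56.3 in ATI-marker cells and 0.981 and 2.52 in keratin-low cells. The rule set these levels below those of ATI-marker cells. The transitional cells held ATI transcripts, and Pdpn and Rtkn2 were low in all groups, with no group above 28.1 CPM. Of the cells in the highest 10% of the keratin sum, 168 of 560 were also ATI-marker cells in library B, 30.0% (26.2 to 34.0%), and 219 of 1460 in library C, 15% (13.2 to 16.9%). Seen from the other side, 60.0% of ATI-marker cells were keratin-high in library B and 30.0% in library C, so the ATI-marker group itself holds many keratin-high cells.

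Against keratin-low cells, 4575 genes reached 20 CPM in either group in both libraries, not counting the 13 genes of the rule. Of these, 274 were at least 2-fold higher in transitional cells in both libraries (5.99%) and 252 at least 2-fold lower (5.51%), on a log2 scale with 1 CPM added. No gene passed in opposite directions, and the median log2 fold of all 4575 genes was -0.07 in library B and -0.02 in library C. The groups were chosen on the keratin sum, so genes that vary with it had to differ, and the counts are a description of what goes with that sum. A gene expressed in 1 of the groups alone passes the level minimum only through that group.

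**Figure D2:**
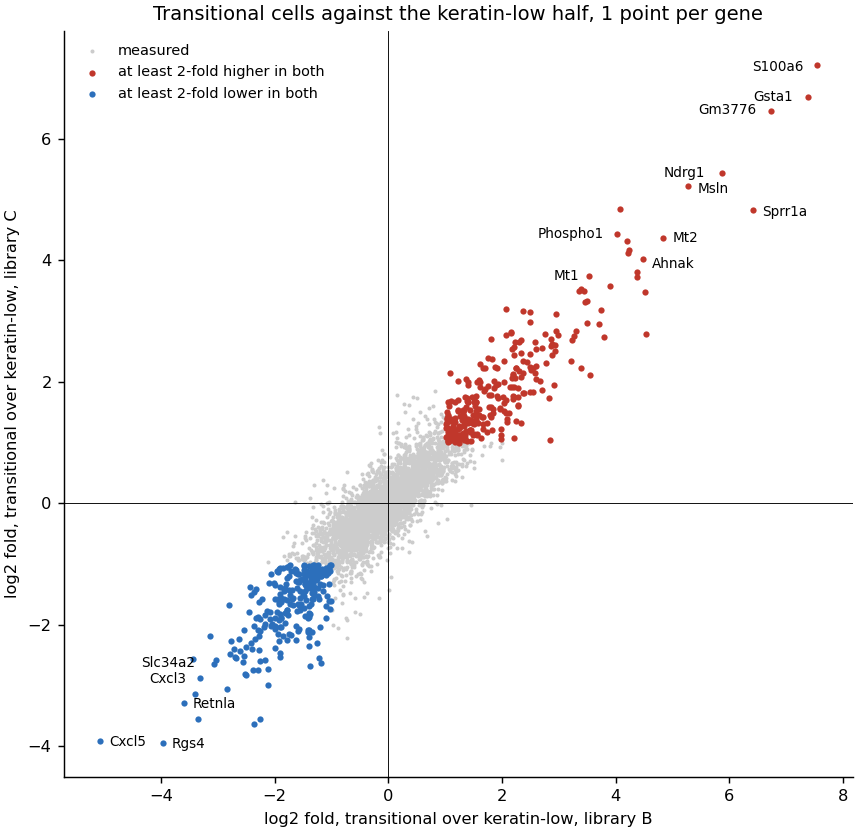
Log2 fold of transitional over keratin-low cells in library B (x axis) and library C (y axis), 1 point per gene for the 4575 measured genes, with the 274 higher genes in red and the 252 lower genes in blue. S100a6 lies farthest to the upper right, at 7.54 and 7.21, and Cxcl5 and Rgs4 lie at the lower left.

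The leading gene was S100a6, which encodes a calcium-binding protein of the S100 family (chromosome 3, 90612882 to 90624181, plus strand, GRCm38). S100a6 stood at 819 CPM (783 to 857) in transitional cells of library B, against 3.39 CPM (2.73 to 4.18) in keratin-low cells, a log2 fold of 7.54. In library C S100a6 stood at 568 CPM in transitional cells, against 2.85 CPM in keratin-low cells, a log2 fold of 7.21. It was nearly absent from keratin-low cells of both libraries. Sprr1a, a cornified envelope precursor that is induced by epithelial injury, stood at 527 and 150 CPM in transitional cells of libraries B and C, against 5.19 and 4.35 CPM in keratin-low cells. Ndrg1, a stress- and hypoxia-inducible gene, stood at 142 and 144 CPM in transitional cells, against 1.45 and 2.35 CPM in keratin-low cells. Msln, the surface protein mesothelin, stood at 43.8 and 55.0 CPM in transitional cells, against 0.153 and 0.499 CPM in keratin-low cells. In ATI-marker cells Msln was at a like level, 53.9 and 66.8 CPM. With all UMIs counted, Msln had a UMI in only 5.1% and 7.66% of transitional cells, so a small share of these cells carried its level. Of 23 measured genes known from other descriptions of transitional cells, 13 were higher and none lower, with median log2 folds of 1.73 and 1.74. Besides those named they included Krt18, the keratin partner of Krt8, at 2615 and 1772 CPM in transitional cells against 786 and 779 CPM in keratin-low cells, the chaperone clusterin (Clu), the small heat shock protein Cryab and the EGFR ligand Areg. Nupr1, a stress-inducible chromatin protein, did not pass in both, with log2 folds of 0.44 and 1.75, and Sox4 had -0.07 and 0.04.

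Calcium-binding annexin and S100 genes other than S100a6 were higher in 6 of 11, with S100a14 at 65.7 and 50.3 CPM in transitional cells against 3.97 and 4.67 CPM in keratin-low cells. Keratin-high cells that were also ATI-marker cells held more S100a14, at 178 and 133 CPM. S100a10, the partner of annexin A2, stood at 182 and 184 CPM in transitional cells, against 18.1 and 26.4 CPM in keratin-low cells. Of 20 actin cytoskeleton genes 5 were higher, against 2 with cells chosen after thinning or with the cut at 20% and 3 at a minimum of 50 CPM. They were led by Tpm2, a tropomyosin, with log2 folds of 3.70 and 2.95. Tmsb10, which binds actin monomers, had log2 folds of 2.19 and 1.71, while Actb, the abundant beta-actin, had 0.84 and 0.33. The scaffold protein Ahnak, listed with ATI genes, stood at 199 and 266 CPM in transitional cells, against 7.97 and 15.4 CPM in keratin-low cells. In keratin-high cells that were also ATI-marker cells Ahnak was higher still, at 474 and 505 CPM. Of 9 measured ATI genes that the rule did not use, 4 were higher (Ahnak, Emp2, Vegfa and Timp3) and none lower, with median log2 folds of 1.42 and 1.02. The water channel gene Aqp5 did not pass, at 849 and 1554 CPM in transitional cells against 663 and 972 CPM in keratin-low cells.

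Genes of the oxidative stress response controlled by the transcription factor NRF2 were higher in 13 of 18 measured, with none lower and median log2 folds of 1.29 and 1.35. With cells chosen after thinning, 8 were higher. Hmox1, heme oxygenase 1, which breaks down heme (chromosome 8, 75093621 to 75100589, plus strand), stood at 1114 CPM (1072 to 1157) in transitional cells of library B, against 59.8 CPM (56.9 to 62.8) in keratin-low cells. In library C Hmox1 stood at 837 CPM in transitional cells, against 41.1 CPM in keratin-low cells, and the log2 folds were 4.20 and 4.31. Gclm, the modifier subunit of the rate-limiting enzyme of glutathione synthesis, stood at 722 and 536 CPM in transitional cells, against 111 and 90.3 CPM in keratin-low cells. Srxn1, sulfiredoxin, stood at 92.3 and 91.7 CPM in transitional cells, against 16.2 and 17.4 CPM in keratin-low cells. The ferritin light chain gene Ftl1 was also higher, at 24948 and 24182 CPM in transitional cells against 7621 and 5168 CPM in keratin-low cells, whereas the heavy chain gene Fth1 did not pass, with log2 folds of 0.53 and 0.42. Slc7a11, the cystine transporter, reached 1.03 in library C and 0.89 in library B.

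Glutathione transferases, which conjugate glutathione to electrophiles, were higher in 6 of 11, with none lower. Gsta1 (chromosome 9, 78230656 to 78242684, plus strand) stood at 261 CPM (241 to 282) in transitional cells of library B, against 0.572 CPM (0.320 to 0.943) in keratin-low cells. In library C Gsta1 stood at 255 CPM in transitional cells, against 1.5 CPM in keratin-low cells, so that it was close to absent from keratin-low cells in both. Gm3776, its neighbour (78257129 to 78269166), stood at 169 and 146 CPM in transitional cells, against 0.610 and 0.678 CPM in keratin-low cells. Of the 311 windows of 90 bases in the last 400 bases of the Gm3776 transcript, 221 occur exactly in Gsta1 transcripts (71.1%). Reads from these windows cannot tell the 2 genes apart, so the counts of both are uncertain, and how such reads were counted was not tested. Gsta4 stood at 1836 and 1160 CPM in transitional cells against 422 and 415 CPM in keratin-low cells, while the membrane enzyme gene Mgst1 had log2 folds of 0.06 and -0.12.

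All 3 metallothionein genes, which encode small zinc- and copper-binding proteins, were higher. Mt1 stood at 4876 and 6118 CPM in transitional cells, against 419 and 457 CPM in keratin-low cells. Mt2 stood at 1043 and 865 CPM in transitional cells, against 35.4 and 41.2 CPM in keratin-low cells, and Mt3 at 39.6 and 30.2 CPM, against 0.953 and 1.25 CPM. Their median log2 folds were 4.38 and 3.80. No 90-base window in the last 400 bases of Mt2 occurs in Mt1 transcripts (0 of 403).

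Sequences of 5 promoters are shown because they belong to leading genes of these groups or to a gene of the rule, and hold letters of motifs bound by stress-responsive factors. They are RefSeq windows from 250 bases before to 50 bases after the annotated start on GRCm38.p6, written 5′ to 3′ on the gene's strand. In the first 3, capitals mark TGANTCA, the core site of AP-1 factors, searched on both strands.
Sprr1a (chr3:92485832-92486131, minus strand): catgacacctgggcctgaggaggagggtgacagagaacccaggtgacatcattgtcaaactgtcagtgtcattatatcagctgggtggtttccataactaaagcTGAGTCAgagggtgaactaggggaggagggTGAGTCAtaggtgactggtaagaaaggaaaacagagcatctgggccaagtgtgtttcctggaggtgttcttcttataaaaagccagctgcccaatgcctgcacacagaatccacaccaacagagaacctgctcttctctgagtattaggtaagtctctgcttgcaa
Cldn4 (chr5:134946885-134947184, minus strand): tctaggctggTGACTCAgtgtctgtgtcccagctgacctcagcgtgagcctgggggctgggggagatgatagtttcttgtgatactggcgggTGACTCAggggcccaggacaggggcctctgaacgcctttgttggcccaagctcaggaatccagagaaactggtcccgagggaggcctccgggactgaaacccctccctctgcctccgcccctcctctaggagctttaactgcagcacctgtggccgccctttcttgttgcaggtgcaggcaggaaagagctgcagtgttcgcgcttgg
Srxn1 (chr2:152105274-152105573, plus strand): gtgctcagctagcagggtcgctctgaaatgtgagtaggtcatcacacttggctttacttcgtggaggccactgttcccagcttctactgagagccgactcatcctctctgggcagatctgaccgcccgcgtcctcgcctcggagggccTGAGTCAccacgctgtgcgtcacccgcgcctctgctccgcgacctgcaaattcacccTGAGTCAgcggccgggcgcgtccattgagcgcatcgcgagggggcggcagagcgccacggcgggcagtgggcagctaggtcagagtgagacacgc
In the last 2, capitals mark TGCACNC or TGCGCNC, the core of the metal response element of metallothionein genes, on both strands.
Mt1 (chr8:94178839-94179138, plus strand): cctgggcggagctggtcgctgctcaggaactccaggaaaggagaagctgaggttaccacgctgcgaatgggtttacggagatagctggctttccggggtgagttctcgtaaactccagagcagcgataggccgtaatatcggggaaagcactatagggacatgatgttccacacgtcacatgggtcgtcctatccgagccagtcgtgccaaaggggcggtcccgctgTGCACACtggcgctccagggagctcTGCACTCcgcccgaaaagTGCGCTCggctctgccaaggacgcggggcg
Mt2 (chr8:94172368-94172667, plus strand): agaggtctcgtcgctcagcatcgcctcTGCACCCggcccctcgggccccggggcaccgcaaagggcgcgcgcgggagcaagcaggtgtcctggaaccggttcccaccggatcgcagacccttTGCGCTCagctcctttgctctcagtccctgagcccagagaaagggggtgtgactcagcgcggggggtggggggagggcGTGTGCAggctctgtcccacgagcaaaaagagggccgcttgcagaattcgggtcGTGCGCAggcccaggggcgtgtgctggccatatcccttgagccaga
Sprr1a, Cldn4 and Srxn1 each held 2 AP-1 matches, which in Sprr1a began at -146 and -116 from the start. Mt1 held 3 matches to the metal motif, at -23, 2 and 20, and Mt2 held 4. A match to TGANTCA was present in 20 of 208 promoters of higher genes found in the table (9.62%), in 7 of 198 promoters of lower genes (3.54%), in 163 of 3627 promoters of measured genes (4.49%) and in 2130 of all 27025 (7.88%). The metal motif was present in 36.1% of promoters of higher genes, 31.3% of lower genes, 37.2% of measured genes and 25.6% of all. For the antioxidant response element, TGACNNNGC, these shares were 19.2%, 10.6%, 16.2% and 12.4%, and for the hypoxia response element, ACGTG, they were 26%, 21.7%, 28.0% and 19.6%. The antioxidant motif can overlap the AP-1 motif, as it does in Sprr1a and Mt2, where both were counted. No match was found for any of these letters in the windows of Lgals3, Krt8, Sfn and Ahnak. The windows of Txnrd1, Slc7a11, Nqo1, Retnla and Sftpa1 held none either. Of these, Txnrd1 and Slc7a11 belong to the NRF2 list, in which Srxn1 and Gclm held an antioxidant match. A match is a description of letters and not of a bound site.

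Glycolysis and hypoxia genes were higher in 16 of 23, with none lower and a median log2 fold of 1.47 in each library. Gapdh, the glycolytic dehydrogenase, stood at 17646 and 19365 CPM in transitional cells, against 3740 and 4136 CPM in keratin-low cells. Aldoa, aldolase A, stood at 7301 and 6261 CPM in transitional cells, against 2368 and 1652 CPM in keratin-low cells. The symbol Aldoa has 2 IDs in the annotation, and its values are those of the ID with more UMIs. Adm, the hypoxia-inducible peptide adrenomedullin, stood at 98.6 and 91.4 CPM in transitional cells, against 4.31 and 4.14 CPM in keratin-low cells. Bnip3, a hypoxia-inducible mitophagy receptor, stood at 676 and 969 CPM in transitional cells, against 149 and 166 CPM in keratin-low cells. The glucose transporter gene Slc2a1 and the prolyl hydroxylase gene Egln3 were higher as well. Ldha, lactate dehydrogenase A, did not pass, with log2 folds of 0.84 and 0.71. None of 21 genes of oxidative phosphorylation passed in either direction, with median log2 folds of -0.16 and -0.14.

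Targets of p53 and genes of growth arrest were higher in 3 of 11, among them Cdkn1a and Cdkn2b. Cdkn1a, the cyclin-dependent kinase inhibitor p21, stood at 355 and 344 CPM in transitional cells, against 93.5 and 73.3 CPM in keratin-low cells. Cdkn2b, the kinase inhibitor p15, stood at 95.6 and 90.7 CPM in transitional cells, against 22.6 and 22.1 CPM in keratin-low cells. The p53 targets Mdm2, Phlda3, Ccng1 and Bax had log2 folds between 0.53 and 0.85 and did not pass. Of 11 TGF-beta and fibrinolysis genes 6 were higher and none lower, among them Ccn2, connective tissue growth factor, at 20.2 and 34.6 CPM in transitional cells against 1.14 and 4.03 CPM in keratin-low cells. The ligand gene Tgfb2 stood at 55.2 and 75.6 CPM in transitional cells, against 6.48 and 19.0 CPM in keratin-low cells. Of the TGF-beta list, 2 genes were higher with cells chosen after thinning, 1 with the cut at 20% and 3 at a minimum of 50 CPM. Of the integrated stress response, 2 of 12 genes were higher, Ddit3 and Ppp1r15a, and 1 after thinning or with the cut at 20%, with log2 folds of 2.07 and 2.77 for the transcription factor gene Ddit3. Genes of the unfolded protein response went the other way, with 5 of 15 lower and none higher. The disulfide isomerase gene Pdia6 was among the lower, at log2 folds of -1.45 and -1.35. After thinning 0 genes of this unfolded protein response list were lower, with the cut at 20% 1 was, and at a minimum of 50 CPM 2 were. With TMM factors, a pseudocount of 5 CPM or either weighting 3 were.

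ATII genes were lower in 13 of 21 measured, with none higher and median log2 folds of -1.60 and -1.31. Sftpa1, surfactant protein A, stood at 2643 and 1766 CPM in transitional cells, against 12743 and 9442 CPM in keratin-low cells. Slc34a2, the phosphate transporter of ATII cells, stood at 59.4 and 83.4 CPM in transitional cells, against 505 and 525 CPM in keratin-low cells. Sftpc, surfactant protein C, stood at 47523 and 56435 CPM in transitional cells, against 142652 and 126205 CPM in keratin-low cells. With cells thinned to 1000 UMIs Sftpc had a UMI in 99.2% and 99.0% of transitional cells, 98.9% and 99.2% of ATI-marker cells and 100% of keratin-low cells. With nearly every cell of every group positive, that share does not separate expression from free RNA. The lamellar body lipid transporter gene Abca3 and the transcription factor genes Etv5 and Cebpa were lower as well. Sftpb did not pass, with log2 folds of -0.92 and -0.93, and neither did Nkx2-1, the lung lineage factor, with -0.65 and -0.20. When the cells were chosen after thinning, or the cut was set at 20%, 5 ATII genes were lower instead of 13. Over all genes, the lower count fell as well, from 252 of 4575 to 73 of 4460 and 108 of 4463.

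Inflammatory and chemokine genes were lower in 9 of 12 and higher in 1, Cxcl16. Cxcl5, a neutrophil chemokine, stood at 36.6 CPM (29.4 to 45.2) in transitional cells of library B, against 1260 CPM (1246 to 1274) in keratin-low cells. In library C Cxcl5 stood at 77.6 CPM in transitional cells, against 1183 CPM in keratin-low cells. Cxcl3, its neighbour on chromosome 5, stood at 76.7 and 40.9 CPM in transitional cells, against 772 and 306 CPM in keratin-low cells. Lrg1 had log2 folds of -2.77 and -2.26, and the alarmin gene Il33 stood at 14.3 and 37.5 CPM in transitional cells, against 104 and 213 CPM in keratin-low cells. Rgs4, which speeds the shut-off of G proteins, and Hdc, which makes histamine, were also among the lowest, with log2 folds of -3.97 and -3.94 for Rgs4 and -3.34 and -3.54 for Hdc. Pigr, the receptor that carries IgA across epithelium, had -2.51 and -2.82. The MHC class II genes H2-Aa and H2-Eb1 were lower, 2 of 6 measured. With cells chosen after thinning, 4 inflammatory genes and no MHC class II gene were lower, and with the cut at 20% these counts were 5 and 0.

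Genes known to respond to IL-4 and IL-13 were lower in 4 of 6 measured, with none higher, and in 2 with cells chosen after thinning or with the cut at 20%. Retnla, a resistin-like protein, stood at 1232 and 2902 CPM in transitional cells, against 14975 and 28233 CPM in keratin-low cells. Slc26a4, the anion exchanger pendrin, had log2 folds of -2.25 and -2.59, and Socs2 and the chitinase-like gene Chil4 were lower too. The median Retnla level per cell was 3.70 and 2.82 UMIs per 10000 in transitional cells, against 121 and 264 in keratin-low cells, so the median keratin-low cell was rich in Retnla. With keratin-low cells weighted toward the Retnla levels of the transitional cells, Retnla remained at 1232 and 2902 CPM in transitional cells, against 4438 and 8456 CPM in the weighted keratin-low cells, so the match was incomplete. Under these weights 4707 genes were measured. Of them 252 were higher, 228 of these shared with the unweighted count, and 313 were lower, 203 of these shared. With the same weights metallothioneins were higher in 3 of 3, glycolysis and hypoxia genes in 16 of 23, NRF2 genes in 10 of 18 and other transitional genes in 14 of 23, and ATII genes were lower in 15 of 21. Slc26a4 still passed, Chil4 and Socs2 did not, and Chil4 had log2 folds of -0.21 and -0.01. Whether a cell had been treated with cytokine is unknown, so the part of treatment in these levels was not tested.

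Mitosis genes were lower in 11 of 14 and S-phase genes in 2 of 6, with none higher in either list. Top2a, topoisomerase II alpha, stood at 32.9 and 24.0 CPM in transitional cells, against 125 and 142 CPM in keratin-low cells. Without the 20% of cells highest in cell cycle genes no mitosis or S-phase gene passed. That filter used the genes of these same 2 lists, so their loss was built into it. With keratin-low cells weighted to the UMIs per cell of the transitional cells, 4 mitosis genes and no S-phase gene passed, and 4 mitosis genes and 1 S-phase gene passed with cells chosen after thinning. With the Retnla weights 16 mitosis and 4 S-phase genes were lower, and at a minimum of 50 CPM 8 and 0 were. Cell cycle genes summed to 6.68 and 7.46 UMIs per 10000 at the 90th percentile of transitional cells, against 43.1 and 51.2 in keratin-low cells, so the keratin-low group held more cells with high cell cycle counts.

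Markers of other cell types differed in level. In transitional cells the defining markers Cdh5 of endothelium, Col1a1 and Dcn of fibroblasts, Ptprc of leukocytes, C1qa and Marco of macrophages and Trp63 and Krt5 of basal cells stood at 0 CPM, and Pecam1 and Foxj1 reached at most 1.04 CPM. Other members of the same lists were present. The endothelial list summed to 13.9 and 24.5 CPM in transitional cells, against 26.8 and 25.5 CPM in keratin-low cells, and Egfl7, a secreted vascular protein gene, made up 8.42 and 21.1 CPM of the first. Cd79b, a B-cell receptor subunit, stood at 56.0 and 70.1 CPM in transitional cells, against 143 and 155 CPM in keratin-low cells. The airway secretory list summed to 80.9 and 68.3 CPM in transitional cells, against 177 and 106 CPM in keratin-low cells, with Scgb1a1, the club cell secretoglobin, at 38.8 and 20.3 CPM against 102 and 40.4 CPM. The mesothelial list summed to 45.5 and 57.6 CPM, of which Msln made up 43.8 and 55.0, while Wt1 and Upk3b were at 0. The macrophage list summed to 234 and 108 CPM in transitional cells, against 250 and 241 CPM in keratin-low cells, and Lyz1 and Cd68 made up most of it. Cd68, a lysosomal glycoprotein, was itself higher, at 36.2 and 27.4 CPM in transitional cells against 5.61 and 4.99 CPM in keratin-low cells. The basal list summed to 238 and 371 CPM in transitional cells, of which Bcam, a laminin receptor, made up 235 and 370, against 162 and 251 CPM in keratin-low cells. The gastrointestinal list summed to 11.8 and 25.5 CPM, against 0.992 and 2.57 CPM, and Tff1, a trefoil peptide gene, held 10.5 and 24.2 CPM of it. The part of such cells or of free RNA in the results was not tested.

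**Figure D3:**
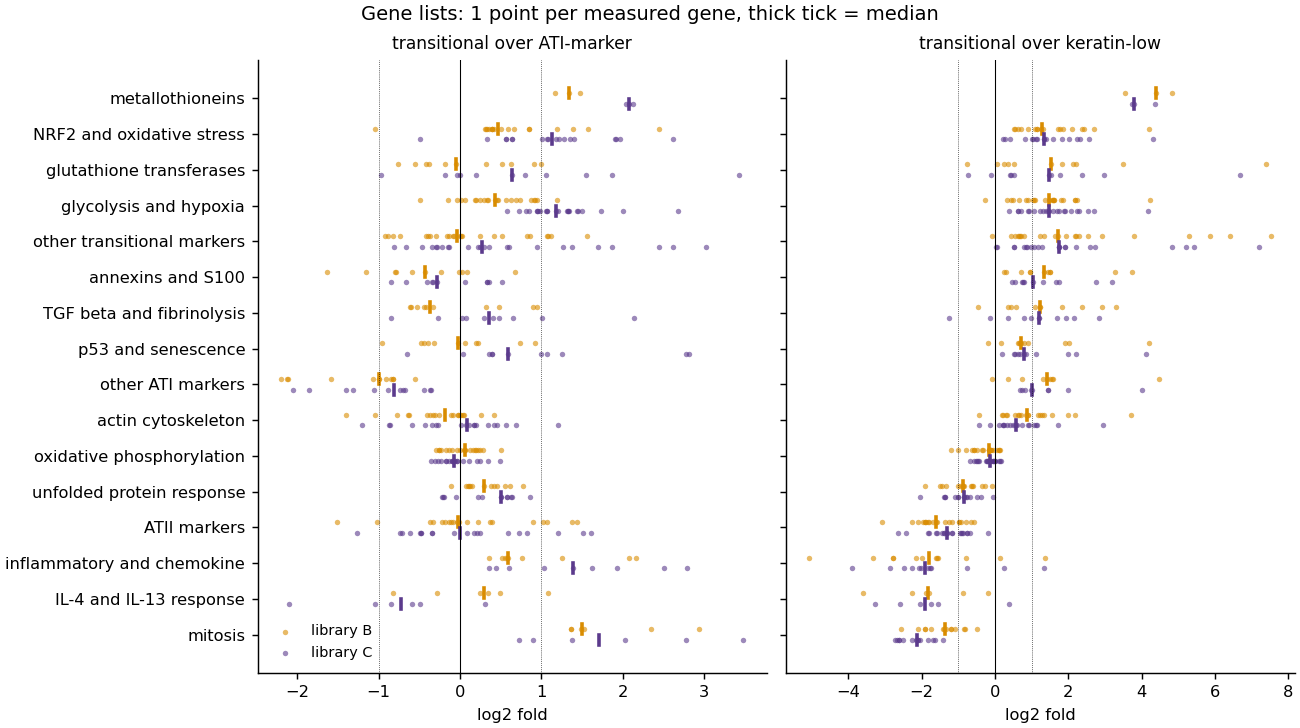
Log2 fold (x axis) of each measured gene of 16 lists, transitional over ATI-marker cells (left) and transitional over keratin-low cells (right), in library B (orange) and library C (purple), with thick ticks at the list medians and dotted lines at -1 and 1. Metallothioneins lie to the right in both panels, and ATII genes lie to the left on the right-hand panel with medians near 0 on the left-hand panel.

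Against ATI-marker cells fewer genes passed. Of 4200 genes measured, 58 passed as higher in both libraries (1.38%) and 66 as lower (1.57%), with a median log2 fold of all genes of -0.07 and -0.01. Both sums of the rule chose these groups, so the counts are again a description, and the comparison shares its transitional cells with the one against keratin-low cells. Leaving the keratin-high cells out of the ATI-marker group gave 119 higher and 94 lower genes of 4246 measured. The log2 folds of the 2 libraries correlated across genes at 0.694, against 0.910 for the comparison with keratin-low cells, as a description over genes that are not independent.

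The genes higher than in ATI-marker cells included Hmox1, Gclm and the metallothioneins. Hmox1 stood at 1114 and 837 CPM in transitional cells, against 375 and 221 CPM in ATI-marker cells. Gclm stood at 722 and 536 CPM in transitional cells, against 274 and 137 CPM in ATI-marker cells. Of 18 NRF2 genes 4 were higher, with median log2 folds of 0.46 and 1.13. Mt1, Mt2 and Mt3 were all higher, with median log2 folds of 1.34 and 2.07. Most other lists raised over keratin-low cells had few or no genes past 2-fold in both libraries, and some list medians differed between the libraries. Of other transitional genes 4 of 24 were higher and none lower, with median log2 folds of -0.04 and 0.27. Of glycolysis and hypoxia genes 1 of 23 was higher in both, but the median log2 fold was 0.43 in library B and 1.18 in library C. The folds were above 0 for 20 of these genes in library B and for 23 in library C. None of 11 glutathione transferases, 11 annexin and S100 genes, 11 p53 and growth arrest genes or 10 TGF-beta and fibrinolysis genes passed. In that order their median log2 folds were -0.05, -0.43, -0.02 and -0.38 in library B. In library C they were 0.64, -0.28, 0.59 and 0.35. Of 20 actin cytoskeleton genes none was higher and 1 was lower. Espn, which encodes the actin-bundling protein espin, stood at 59.0 and 77.1 CPM in transitional cells, against 19.7 and 12.3 CPM in ATI-marker cells. Trf, the iron carrier transferrin, stood at 2131 and 1576 CPM in transitional cells, against 598 and 358 CPM in ATI-marker cells. Fabp5, a fatty acid-binding protein, and Slpi, a secreted protease inhibitor, were higher as well. The 4 mitosis genes that were higher were Ccnb2, Birc5, Cenpf and Ube2c, of 6 measured, and Cenpf was lower in library B with cells chosen after thinning (log2 fold -0.22) or without the cells highest in cell cycle genes (-0.90). Cenpf is itself among the genes of that last filter.

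Some of these genes had transitional levels between those of the other 2 groups. Cd177, known as a neutrophil surface protein, stood at 222 and 150 CPM in transitional cells, against 19.0 and 18.5 CPM in ATI-marker cells, and at 766 and 711 CPM in keratin-low cells. Lcn2, the iron-sequestering lipocalin 2, stood at 3778 and 2747 CPM in transitional cells, against 845 and 718 CPM in ATI-marker cells, and at 11441 and 9370 CPM in keratin-low cells. Pf4, a chemokine gene next to Cxcl5 and Cxcl3, stood at 245 and 218 CPM in transitional cells, against 47.8 and 46.6 CPM in ATI-marker cells, and at 888 and 1001 CPM in keratin-low cells. In these genes keratin-low cells were highest and ATI-marker cells lowest in both libraries. Sparc, a matricellular glycoprotein, showed the opposite order, at 141 and 179 CPM in transitional cells, against 573 and 555 CPM in ATI-marker cells and 32.5 and 70.4 CPM in keratin-low cells. Clic3, a chloride channel-like protein gene, followed the order of Sparc, at 142 and 352 CPM in transitional cells, against 440 and 939 CPM in ATI-marker cells and 12.6 and 74.5 CPM in keratin-low cells.

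Genes lower than in ATI-marker cells were led by Pmp22, a tetraspan membrane protein gene, at 5.05 and 13.5 CPM in transitional cells, against 58.5 and 92.0 CPM in ATI-marker cells. Cldn18, the lung claudin, stood at 166 and 222 CPM in transitional cells, against 717 and 924 CPM in ATI-marker cells. Igfbp7, Samhd1 and Id3, an inhibitor of DNA binding induced by BMP signals, were lower too. Of 12 ATI genes that the rule did not use, 4 were lower (Cldn18, Scnn1g, Pdgfa and Gramd2) and none higher. Sec14l3, listed with ciliated cell genes, had 0 counts in transitional cells of library B, which allows up to 3 counts, and stood at 22.0 CPM in ATI-marker cells. In library C Sec14l3 stood at 2.87 CPM in transitional cells, against 72.4 CPM in ATI-marker cells. Several leading genes of the comparison with keratin-low cells were past 2-fold over ATI-marker cells in library C and not in library B. S100a6 stood at 819 CPM in transitional cells of library B, against 1062 CPM in ATI-marker cells, and at 568 CPM in transitional cells of library C, against 217 CPM in ATI-marker cells. Gsta1 stood at 261 and 255 CPM in transitional cells, against 138 and 23.0 CPM in ATI-marker cells.

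**Figure D4:**
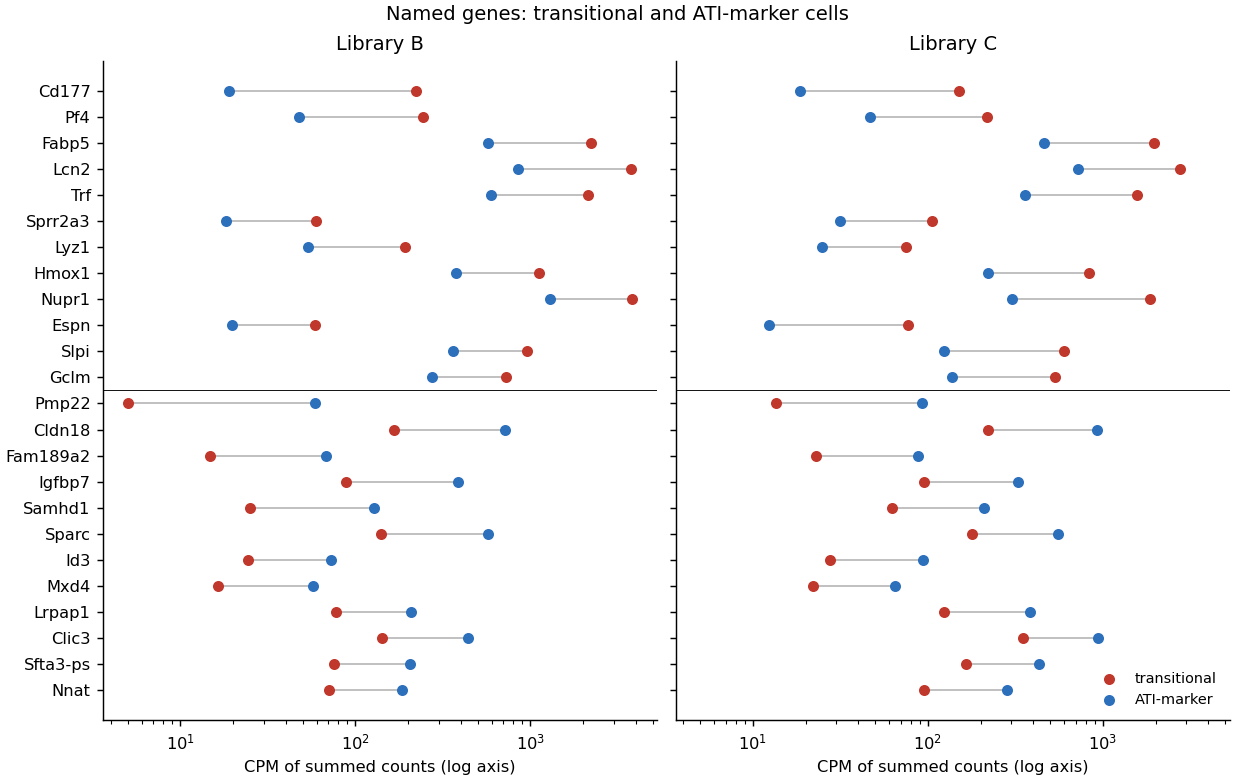
CPM of summed counts (x axis, log) in transitional cells (red) and ATI-marker cells (blue) for the 12 genes leading among higher (above the line) and the 12 leading among lower genes (below it), in library B (left) and C (right). The genes run from Cd177 at 222 and 150 CPM in transitional cells to Nnat at 70.3 and 94.6 CPM. They were chosen for passing in the same direction in both libraries, which fixed the order of each pair.

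Along the keratin sum the changes were concentrated at its upper end. With cells ordered by the sum and cut into 10 equal groups, S100a6 of library B stood at 13.6 CPM in group 8, 127 CPM in group 9 and 950 CPM in group 10, and at 5.61 CPM or less in groups 1 to 7. In library C S100a6 stood at 17.1, 96.6 and 561 CPM in groups 8, 9 and 10. Hmox1 was already higher in earlier groups, with 122, 222, 597 and 931 CPM in groups 7 to 10 of library B. In library B Sftpa1 stood at 13249, 9836, 7288 and 2172 CPM in groups 1, 8, 9 and 10. Cxcl5 stood at 1296 CPM in group 1, 302 CPM in group 9 and 32.5 CPM in group 10 of library B. Retnla fell over more of the range, with 17496, 12707, 8877 and 1011 CPM in groups 1, 5, 8 and 10 of library B. Group 10 includes the keratin-high ATI-marker cells, and median UMIs per cell were 5182 and 2794 in group 10, against 8474.5 and 3441 in group 1.

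**Figure D5:**
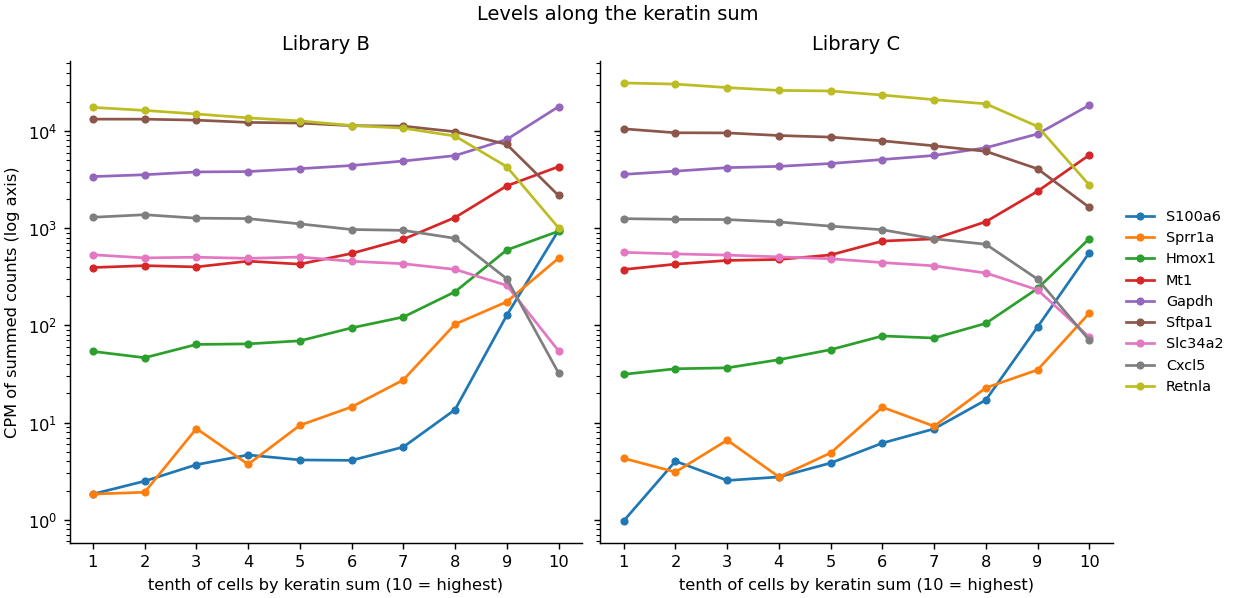
CPM of summed counts (y axis, log) of 9 genes in 10 equal groups of cells ordered by the keratin sum (x axis), in library B (left) and C (right). S100a6, Sprr1a, Hmox1, Mt1 and Gapdh are highest in group 10, where Sftpa1, Slc34a2, Cxcl5 and Retnla are lowest.

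The transitional cells varied among themselves. Split by the keratin sum into lower, middle and upper groups of equal size, they held S100a6 at 453, 643 and 1421 CPM (library B) and at 206, 438 and 1091 CPM (library C). Gsta1 stood at 119, 179 and 507 CPM (library B) and at 124, 208 and 444 CPM (library C). Lcn2 ran the other way, at 5109, 3684 and 2337 CPM in library B and 3740, 2689 and 1739 CPM in library C, as did Slc34a2, at 91.3, 56.7 and 25.3 CPM and at 138, 71.3 and 37.1 CPM. Hmox1 showed no such order in library B, at 1136, 1178 and 1023 CPM, whereas in library C it was highest in the upper group, at 576, 842 and 1112 CPM. Keratin-high cells that were also ATI-marker cells held Hmox1 at 424 and 385 CPM and Trf at 423 and 262 CPM.

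At a fixed depth of 1000 UMIs, Hmox1 had a UMI in 39.0% (34.2 to 44.1%) and 34.4% (31.8 to 37.1%) of transitional cells, against 4.97% and 3.80% of keratin-low cells. Sprr1a had a UMI in 18.4% (14.7 to 22.6%) and 5.80% (4.57 to 7.25%) of transitional cells, against 0.429% and 0.384% of keratin-low cells. Gsta1 had a UMI in 10.5% and 9.19% of transitional cells, against 0.0358% and 0.0959% of keratin-low cells. Unthinned, these shares in transitional cells were 71.4% and 50.4% for Hmox1, 34.9% and 10.6% for Sprr1a and 27.6% and 15.4% for Gsta1. Msln had a UMI in 2.04% and 2.9% of transitional cells at the fixed depth, against 0.0358% and 0.0274% of keratin-low cells. Sprr1a, Gsta1 and Msln were thus carried by a minority of the transitional cells at this depth. Sftpc ranked first by Fano factor (variance over mean of the thinned counts), at 41.9 and 41.3, against a median of 1.09 and 1.07 over 980 genes. Its mean was 45.0 and 55.4 UMIs, against 0.485 and 0.175 for Sprr1a, so this rank is not one of spread relative to the mean. Per cell Sftpc ran from 10.8 to 2279 UMIs per 10000 in transitional cells of library B, with a median of 294, against a median of 1420 in keratin-low cells. Mt1 had Fano factors of 8.79 and 11.5 and Sprr1a of 6.23 and 9.68, whereas Krt19 had 1.40 and 1.19. The cells were selected on Krt19, and the means of these genes differ, so its spread is not comparable with theirs.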

How the data were processed

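The values used are raw UMI counts, which the authors deposited as a single matrix for all libraries. Cell Ranger 6.0.1, bcl2fastq and the builds GRCm38 and mm10 are named in the submitters' processing notes. How cells were called, and whether doublets were removed, is not given in the sources used here. GENCODE M21 named 52403 of 52636 gene IDs, and the other 233 held 0.0209% of UMIs. A symbol shared by several IDs stands for the ID with the most UMIs. UMI counts of each group and library were added up and scaled to CPM, and log2 folds were taken with 1 CPM added. A gene passed if it differed at least 2-fold in the same direction in both libraries and reached 20 CPM in either group in both. The rule for named genes took, per comparison, the 12 highest and 12 lowest passing genes with at least 50 CPM, ranked by the smaller fold of the 2 libraries. It added up to 4 passing genes of each list, or its most abundant gene where none passed. A single result is not reported here. Other genes in the text, such as Krt18, Clu, Nupr1, Sox4, Actb, Aqp5, Fth1, Mgst1, Ldha and the p53 targets that did not pass, were chosen after their values were seen. The members and lists were chosen with earlier results of these data known. Intervals are exact Poisson (CPM) and Clopper-Pearson (shares), and cover counting error only. The size rule was tested on simulated data. Software was Python 3.11.15 with numpy 2.4.6, pandas 2.3.3 and scipy 1.17.1, while TMM factors came from edgeR 4.0.16 under R 4.3.3.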

Additional observations from a re-analysis of the deposited data

Results flagged for a closer look

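Cbr2, a carbonyl reductase gene, went in opposite directions in the 2 libraries when transitional cells were set against ATI-marker cells. Its log2 fold was 1.26 in library B, at 23.2 CPM in transitional cells against 9.11 CPM in ATI-marker cells, and -2.09 in library C, at 38.8 CPM in transitional cells against 168 CPM in ATI-marker cells. The difference between the libraries was not tested, since each is 1 sample. In library A, which the rule leaves out, 421 of 16367 cells (2.57%, exact binomial interval 2.34 to 2.83%) reached the keratin-sum cut of library B, and 409 reached that of library C. The median keratin sum of library A was 7.38 per 10000 UMIs.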

How the results depend on the processing

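The counts of genes depended on how the cells were chosen and on the level minimum, and 15 alternatives were run in all. Against keratin-low cells, 274 genes higher and 252 lower became 156 and 73 with groups chosen after thinning each cell to 1000 UMIs, 160 and 108 with the keratin-sum highest 20%, 177 and 122 with a minimum of 50 CPM and 507 and 709 with no minimum. The 156 higher and 73 lower genes were all among the 274 and 252. List counts given above for these settings are to be read beside these totals. Measured genes numbered 4460 after thinning, 4463 with the highest 20%, 2230 with a minimum of 50 CPM and 19926 with no minimum, against 4575 in the main setting. Against ATI-marker cells, 58 higher and 66 lower became 15 and 27 after thinning, 36 and 33 with a minimum of 50 CPM and 220 and 216 with no minimum, and 119 were higher with comparison groups without the overlap. In the same order of settings, 4243, 2084, 14667 and 4246 genes were measured, against 4200 in the main setting. All other values of the 4 counts of higher and lower genes were within 1.5 times. Like counts against ATI-marker cells did not mean the same genes. With the highest 20%, 33 of 65 higher and 53 of 72 lower genes were among the 58 and 66. With the highest 5%, 42 of 63 higher and 58 of 79 lower genes were. After thinning, 10 of the 15 higher and 26 of the 27 lower genes were. The share of keratin-high cells that were also ATI-marker cells was 22.3% in library B with the highest 20%, and in library C 17.2% with at least 2000 UMIs per cell, 18.6% after thinning and 12.7% without the cells highest in cell cycle genes. Without those cells the log2 fold of Cenpf against keratin-low cells was 0.06 and 0.02 in libraries B and C, and against ATI-marker cells -0.90 in library B. Cenpf was among the genes by which those cells were removed. After thinning, the folds against ATI-marker cells in library B were -0.22 for Cenpf, -0.39 for Lrg1, -0.33 for Lyz1 and -0.63 for Lyz2. The cause was not tested. No paired analysis was possible because each library is 1 sample and its cells match no replicate number in the labels. Depth limits shares of cells with a UMI and the levels of genes with few counts.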
